A study of Mus musculus with 9 samples.

Results

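Untreated TtT/GF cells were described from 3 arrays, the ones whose titles name no treatment, out of 9 in the series. TtT/GF is an established line of pituitary folliculostellate cells, derived from a mouse thyrotropic pituitary tumour. According to the submitters' design the 3 samples are replicate cultures, so the spread between arrays covers cultures and hybridisations of 1 line and not different animals or pituitaries. The cells grew in medium with 2% heat-inactivated fetal bovine serum and received no agent, and the labels name no vehicle. The other 6 arrays, from cells given 10 µM of the adenosine analog NECA, were not used here, and no comparison between groups was made or tested.

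Folliculostellate cells are the star-shaped, hormone-free cells of the anterior pituitary. They surround the endocrine cells, are joined to each other by gap junctions, and are known for S100 protein, for intermediate filaments and for the release of cytokines and growth factors that act on neighbouring hormone cells. They share features with glia, with epithelium and with phagocytes, which is why markers of those cells were read beside their own.

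RNA was measured with Affymetrix MG_U74A v2 GeneChips, and each probe set has a MAS5 signal, a background-corrected brightness on a linear scale. Of 12422 probe sets that are not controls, 10833 carry 1 gene symbol and stand for 8251 genes, each represented by its probe set with the highest mean. Values below are the signals of replicates 1, 2 and 3 in that order, or means ± SD over the 3 arrays (n = 3). Probe sets differ in how well they bind their target, so a rank is a rank of signal and not of transcript number. The precision is limited by the number of arrays.

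Background was read from controls on the same arrays. The 15 probe sets for the bacterial transcripts Dap, Lys, Phe, Thr and Trp, of which the labels mention no spike, had a median of 3.11, and the 95th percentile of their 45 values, 12.5, is called the bacterial floor. The 15 probe sets with the sense strand of control transcripts, which should not find a labelled target, had a median of 23.9 and a 95th percentile of 52.3, called the sense-strand floor. The highest of these values belonged to the control probe sets BioDn-3, BioDn-5 and CreX-3, with means from 50.3 ± 2.81 to 54 ± 12, so this floor rests on few controls. On all 3 arrays 5911 genes (71.6%) lay above the bacterial floor and 3995 (48.4%) above the sense-strand floor. Another 1525 (18.5%) lay at or below the bacterial floor on all 3, and the remaining 815 (9.88%) above it on some arrays only. These shares are the background against which the counts of each gene group below are set.

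The genes spanned a wide range of signal. The median gene had a mean signal of 56.6, the 90th percentile was 356 and the 99th was 1735. The first 100 genes held 19.4% of the summed signal of all genes and the first 1000 held 59.6%, while 184 genes had a mean over 1000. The curve of signal against rank has a steep end at the top, a long slope and a tail below the floors.

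**Figure D1:**
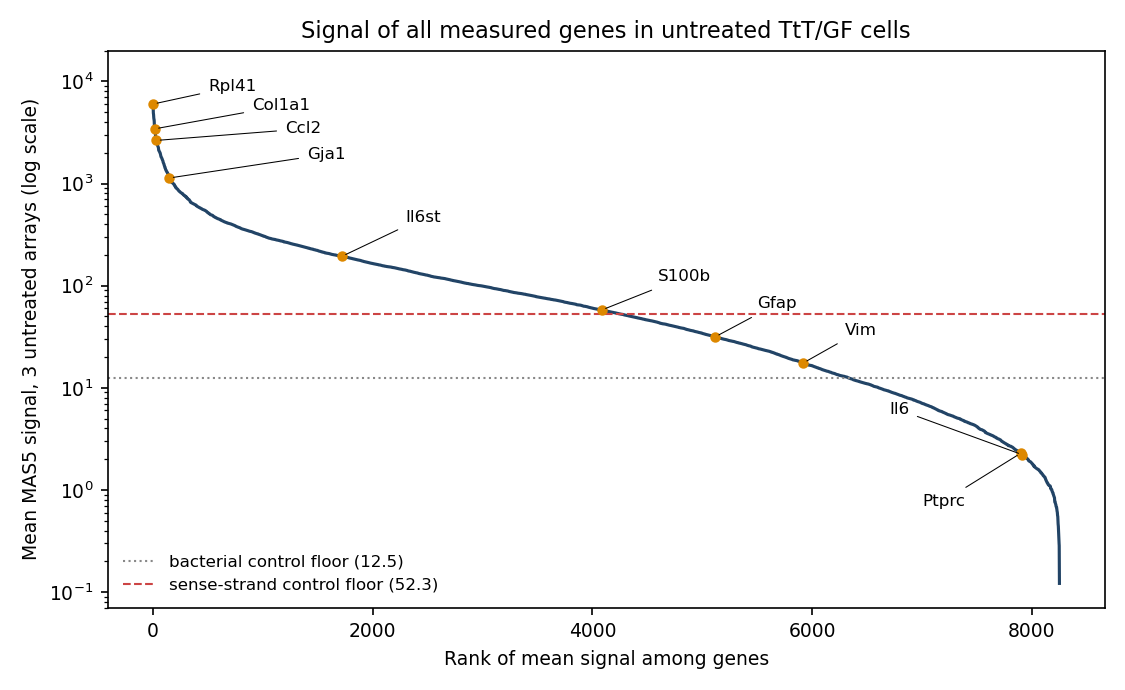
Mean MAS5 signal over the 3 untreated arrays (log scale) against rank for 8251 genes, with 10 named genes and both background floors. Rpl41 leads at 6015 ± 1075, S100b lies close to the sense-strand floor at 57.8 ± 6.55, and Il6 lies in the tail at 2.21 ± 0.980.

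Translation genes led the ranked profile, which leaves out control probe sets and those without 1 gene symbol. The control probe set for the middle of Actb, at 6022 ± 690, read as high as the first ranked gene. Rpl41, a protein of the large ribosomal subunit, ranked first with signals of 5227, 7240.0 and 5578. Eef1a1, the elongation factor that brings aminoacyl-tRNA to the ribosome, was at 4676, 5381 and 4694. Replicate 2 was the highest for both. Of the 30 genes with the highest means 11 were ribosomal protein genes, among them Rps28 (4825 ± 488), Rps24 (4742 ± 349.6) and Rplp0 (4433 ± 245). Rps28 had another probe set at 3746 ± 460 and a lowest at 15 ± 6.83. The other probe set of Rps24 was at 17.9 ± 1.6, so its rank depends on a single probe set. Pabpc1, which binds poly(A) tails, and Tpt1, the translationally controlled tumour protein, were also among the 30, at 3233 ± 132 and 4392 ± 397. Replicate 2 had the highest signal for 67 of the first 100 genes, against 32.4% of all genes above the bacterial floor.

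Ribosomal protein genes were not uniformly high on this array. Of 34 measured, 28 lay above the bacterial floor and 22 above the sense-strand floor, with a median of 1248. A further 4 lay at or below the bacterial floor on all 3 arrays, with Rps27l lowest at 1.51 ± 0.161. Many of these genes have near-identical pseudogenes. Of the first 30 genes 7 rest on probe sets with a letter suffix, among them Rpl41, Rps28 and Rps24 but also Tuba1c, Tuba1a and Gnas. The array design uses such suffixes for probe sets with shared or incomplete probes, so single values of ribosomal protein genes are uncertain. Respiratory chain and ATP synthase genes had 63 of 72 above the bacterial floor with a median of 298, proteasome subunits 34 of 38 with a median of 327, and translation factors 41 of 49 with a median of 160.

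Ribosomal protein mRNAs are known for a run of pyrimidines at their start, through which their translation is controlled. The RefSeq promoter table (GRCm38.p6, 250 bases before to 50 after a gene's start) held 27 of the 34 genes, and 9 of these (33.3%) had at least 8 C or T in a row within 15 bases of the start, on the gene's own strand, against 12.6% of the 6572 measured genes with an entry and 11.9% of all 27025 genes in the table. The 4 with such a run among the first 100 genes by signal are shown from 30 bases before to 15 after the annotated start, with the run of C and T near the start in capitals.
Rps24: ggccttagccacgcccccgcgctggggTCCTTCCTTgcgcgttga
Rps18: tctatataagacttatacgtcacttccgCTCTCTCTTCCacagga
Rps10: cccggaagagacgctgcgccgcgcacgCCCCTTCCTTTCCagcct
Rpl7a: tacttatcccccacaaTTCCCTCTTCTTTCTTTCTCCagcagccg
They lie at chr14:24490648-24490692, plus strand (Rps24), chr17:33955651-33955695, minus strand (Rps18), chr17:27635230-27635274, minus strand (Rps10) and chr2:26910777-26910821, plus strand (Rpl7a). Annotated starts need not be the starts used in these cells.

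The rest of the first 30 genes were structural, secreted and signalling genes. Lgals1, which encodes the lectin galectin-1, ranked second with signals of 4802, 5859.5 and 5039. Alpha tubulin genes Tuba1c (4304 ± 421) and Tuba1a (2678 ± 188) and the gamma actin gene Actg1 (3098 ± 69.4) represent the cytoskeleton, and tubulin and actin paralogs are so alike that their probe sets may share transcripts. Fth1, the iron-storing ferritin heavy chain, stood at 4241 ± 243. Gnas, which encodes the G protein subunit that stimulates adenylyl cyclase, ranked 24 at 2667, 3250.1 and 2545, although its other probe sets were at 20.2 ± 6.17 and 3.6 ± 1.29. The small GTPase genes Ran and Rac1, the tetraspanin gene Cd63 and Tspo, of the outer mitochondrial membrane, lay between 2697 ± 66.3 and 3182 ± 210.0. Gm15772, a predicted gene, was at 3535 ± 138, and its name may stand for the transcript of a related gene.

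Of 27 genes listed as folliculostellate markers, 17 of 25 measured members lay above the bacterial floor on all 3 arrays, 12 also above the sense-strand floor, and 7 at or below the bacterial floor on all 3. The list's median signal was 52.4, against 56.6 over all genes, and its summed signal was 7169.8 to 7558 per array. These shares are close to the background of 71.6% and 48.4%, so the list as a whole did not stand above other genes. With the lowest probe set of each gene in place of the highest, the count above the bacterial floor fell from 17 to 10.

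Anxa1, the anti-inflammatory annexin that mediates glucocorticoid effects on the pituitary, had signals of 2127, 2170.5 and 2008 (rank 54), and its other probe sets were at 1872 ± 129 and, for the lowest, 479. Gja1, which encodes the gap junction protein connexin 43, was at 1267, 1261 and 876 (rank 148). Replicate 3 was the lowest for Gja1, and the second probe set, at 114 ± 42.6, had its lowest value on the same array. Lgals3, galectin-3, stood at 1850.0 ± 64.7, the metalloproteinase inhibitor gene Timp1 at 588 ± 85.5, and the lipid carrier genes Clu and Apoe at 404 ± 10.2 and 249 ± 7.76. Lower but still above the sense-strand floor were the keratin gene Krt18 (189 ± 13.1), the retinal dehydrogenase gene Aldh1a1 (172 ± 12.4) and the small heat shock protein gene Cryab (139 ± 6.33). Second probe sets were at or near background for Timp1 (2.63 ± 1.48), Apoe (4.05 ± 3.39), Krt18 (0.875 ± 0.569) and Cryab (6.66), and at 26.4 for Aldh1a1.

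The classical antigens gave weaker signals. S100b, the S100 protein used to stain these cells, had signals of 65.4, 53.4 and 54.8 (rank 4085), just above the sense-strand floor on each array. Each value lay below the highest sense-strand control value, 67.8. In a bulk culture, a low level in all cells and a higher level in few cells cannot be told apart. Gfap, the glial filament gene, was at 42.6, 27.6 and 24.5, between the floors, and its second probe set was at 7.3 ± 5.26. The single probe set of Vim, the mesenchymal filament vimentin, read 15, 9.01 and 28.5 and so lay above the bacterial floor on 2 arrays only. A low reading of 1 probe set does not show that a transcript is missing. For Actb the control probe sets for its 3' and 5' ends were at 5884 ± 656 and 4775 ± 349, while the probe sets named Actb outside the controls were at 58.1 ± 26.3 and 40.4 ± 17.

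Several factors for which folliculostellate cells are known had no signal above background in these untreated cultures. Il6, a cytokine long linked to these cells, had signals of 2.79, 1.08 and 2.76, below the median of the bacterial controls. Fgf2, basic fibroblast growth factor, was at 2.15, 1.15 and 0.923, and Fst, the activin-binding protein follistatin, at 2.68, 7.57 and 8.01. The other members at or below the bacterial floor on all 3 arrays were Mif, Cxcr4, Sox2 and Aldh1a2, with means between 2.47 ± 0.665 and 10.8 ± 0.143. Vegfa, the vascular growth factor, was above the bacterial floor but not the sense-strand floor, at 34.6, 42.3 and 34.

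The S100 genes ranged from some of the strongest signals of the array to some of the weakest. S100a4 and S100a6, small calcium-binding proteins of motile and dividing cells, had signals of 3378, 3917 and 3733 (rank 12) and 3157, 3606 and 3309 (rank 16). S100a10, the partner of annexin A2, was at 1563 ± 165, S100a13 at 780.1 ± 88, S100a1 at 177 ± 21.2 and S100a3 at 61.3 ± 1.37. Other probe sets of these genes were lower, with the lowest at 36.7 ± 12.2 for S100a10, 9.17 ± 6.93 for S100a13, 12.7 ± 3.84 for S100a1 and 7.51 ± 1.91 for S100a3. The granulocyte members S100a8 and S100a9 stood at 13.8 ± 0.826 and 2.63 ± 0.403, S100a5 at 28 ± 18 and S100g at 8.84 ± 5.01. Over the group, 8 of 11 measured members lay above the bacterial floor on all 3 arrays, 7 also above the sense-strand floor, and 1 at or below the bacterial floor on all 3. The first of these shares was 72.7%, against 71.6% of all genes, and the count fell from 8 to 5 with the lowest probe set of each gene.

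Among connexin genes, 3 of 11 measured members lay above the bacterial floor on all 3 arrays, 1 also above the sense-strand floor, and 6 at or below the bacterial floor on all 3. Gja1 was the only 1 of the 11 above the sense-strand floor. Gja5 and Gjb5 were between the floors at 49.5 ± 15.4 and 38.6 ± 3.83, Gjb2 and Gjb1 near the bacterial floor at 14.7 ± 5.94 and 13 ± 0.653, and the other 6 had means up to 4.84 ± 1.3. Of 29 intermediate filament genes, 14 lay above the bacterial floor and 6 above the sense-strand floor. Those with the highest signal were the lamin gene Lmna (2109 ± 161), Nes, the filament of neural and other progenitors (389 ± 34.9), and Krt18. Krt8, whose protein pairs with that of Krt18, was at 22.9 ± 7.17, and the second probe set of Nes was at 10.4. With the lowest probe set of each gene the count of 14 fell to 7.

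Markers of pituitary hormone cells were low. For the hormone genes and receptors for releasing factors, 8 of 14 measured members lay above the bacterial floor on all 3 arrays, 2 also above the sense-strand floor, and 5 at or below the bacterial floor on all 3. The list's median was 24.5. Lhb and Gh, which encode the luteinizing hormone beta chain and growth hormone, were the pair above the sense-strand floor, at 96.8, 115 and 94.1 and 79.6, 86.5 and 93.2. Prolactin (Prl) was at 50.8, 54.5 and 48.4, the shared glycoprotein hormone chain Cga at 29.6 ± 6.36 with a second probe set at 10.7 ± 1.99, and Pomc, the precursor of ACTH, at 26.5 ± 4.71. Tshb was above the bacterial floor on 1 array (18.6, 3.79 and 10.7) and Fshb on none (3.04, 9.4 and 11.1). The receptor genes Gnrhr, Trhr, Crhr1 and Sstr5 lay between 2.43 ± 0.986 and 5.73 ± 1.68, while Ghrhr was at 52.1 ± 7.7, Sstr2 at 41.3 ± 7.28 and Drd2, the dopamine receptor of lactotrophs, at 22.6 ± 3.38.

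Readings of this size also occurred for genes of unrelated organs, which gives them a scale. Of 40 measured genes restricted to liver, muscle, blood, testis and other organs, 14 lay above the bacterial floor and 4 above the sense-strand floor. The 14 became 7 with the floor at the highest bacterial control value or at the 40th percentile of all values. Their median was 11.2 and the 90th percentile of their means was 58.5. The highest were Cela1, a pancreatic elastase, at 266 ± 19, the liver enzyme gene Cyp2e1 at 88 ± 2.84, the sperm nuclear protein gene Tnp1 at 83.9 ± 11.8 and Hba-a1 of haemoglobin at 80.4 ± 15. No pituitary hormone gene exceeded Cela1, and Lhb alone exceeded Cyp2e1. The marker S100b, at 57.8 ± 6.55, lay below Hba-a1 and below the 90th percentile of the organ-restricted genes.

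Pituitary lineage factors were mixed. Of 14 measured, 6 lay above the bacterial floor and 4 above the sense-strand floor. Pitx1, a homeobox factor of the whole anterior pituitary, was at 178, 162 and 168, and Gata2 and Sox3 were at 73.8 ± 4.09 and 59.5 ± 0.606, with lowest probe sets at 1.94 and 7.86. Nr5a1, the gonadotroph and steroidogenic nuclear receptor SF-1, had 1 probe set at 405, 471 and 379 and another 4 between 1.26 ± 0.178 and 44 ± 13.4, so its rank depends on a single probe set. With the lowest probe set of each gene the count above the bacterial floor was 3 in place of 6. Lhx3 was at 15.5 ± 1.52, Pitx3 at 12.5 ± 0.728 and Rax at 34 ± 10.4. Sox2, Nr0b1, Isl1, Neurod1, Hesx1, Six6 and Six3 were at or below the bacterial floor on all 3 arrays. Among genes of the secretory granule, Cpe, the carboxypeptidase that trims hormone precursors, stood out at 708, 604 and 573, while the granins Chgb, Scg2 and Scg3 lay at 11 ± 4.66, 3.49 ± 1.54 and 4.59 ± 3.42 and Chga at 53.7 ± 9.59. Of 13 such genes 5 lay above the bacterial floor, and 2 with the lowest probe sets.

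Fibroblast and mesenchymal markers were the highest of the marker lists by median. In this list 20 of 25 measured members lay above the bacterial floor on all 3 arrays, 14 also above the sense-strand floor, and 3 at or below the bacterial floor on all 3. The first and second of these shares were 80% and 56%, against 71.6% and 48.4% of all genes. Every other cell type list had a smaller share above each floor than all genes. The fibroblast list had a median of 217 and a summed signal of 14831 to 16023 per array. Besides S100a4, it was led by the collagen I genes, with Col1a1 at 3549, 3679 and 3077 (rank 14) and Col1a2 at 2017, 2145 and 1982 (rank 60). Second probe sets of both were also well above the floors, at 692 ± 42.8 and 463 ± 28.9. Sparc, a collagen-binding matrix protein, was at 1024 ± 39.2, Snai2, a repressor of epithelial genes, at 403 ± 59.2, and the receptor gene Pdgfra at 205 ± 27.7. Thy1, Cdh11 and Fap were at or below the bacterial floor, at 8.5 ± 3.12, 4.85 ± 2.88 and 1.45 ± 0.883. Pdgfrb, Prrx1, Twist1, Cdh2, Lox, Lum, Vim and Snai1 had means from 15.5 ± 3.96 to 39.7 ± 5.04, below the median gene at 56.6.

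Smooth muscle and pericyte markers were measured for 13 genes, of which 9 lay above the bacterial floor and 5 above the sense-strand floor. The tropomyosin genes Tpm1 and Tpm2 were at 688 ± 12.4 and 262 ± 3.27, the smooth muscle actin gene Acta2 at 434, 429 and 352, Cnn2 at 319 ± 32.5 and Actg2 at 197 ± 16.2. Desmin (Des) and Tagln lay between the floors at 49.2 ± 5.05 and 32.1 ± 3.02. Myh11, the smooth muscle myosin, and Cnn1 were at 1.37 ± 0.726 and 8.1 ± 6.59.

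Epithelial markers had a median of 15.4, with 9 of 18 above the bacterial floor and 4 above the sense-strand floor, Krt18, Tjp1 (178 ± 61.2), Cdh1 (109 ± 26.3) and Jup (91.7 ± 3.44). Tjp1 and Cdh1 encode a tight junction protein and E-cadherin. The count of 9 became 5 with the floor at the highest bacterial control value and 4 with it at the 40th percentile of all values. The lowest probe set of Tjp1 was at 0.900. Tjp1 varied, with 198, 227 and 109 on the 3 arrays, and so did Cdh1, with 79.4, 130.4 and 116. Epcam, Ocln, Cldn7 and 4 keratin genes (Krt5, Krt7, Krt14 and Krt19) were at or below the bacterial floor on all 3.

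Endothelial markers gave the lowest median of the cell type lists, 6.41, and a summed signal of 621 to 783 per array. Eng, the TGF-beta co-receptor endoglin, made up most of it with signals of 508, 625 and 644, and it was the 1 of 14 above the sense-strand floor. Above the bacterial floor there were 3, which became 1 with the floor at the highest bacterial control value or at the 40th percentile of all values, and 5 when 2 of 3 arrays sufficed. Pecam1 was at 22.9 ± 3.45, Kdr at 8.43 ± 5.32, and Cdh5, Tek, Tie1, Vwf, Cldn5 and Icam2 had means up to 5.42 ± 0.658.

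For macrophages and leukocytes, 9 of 20 measured members lay above the bacterial floor on all 3 arrays, 3 also above the sense-strand floor, and 10 at or below the bacterial floor on all 3. The pan-leukocyte gene Ptprc was at 1.45, 3.27 and 2.14, and Fcer1g, Tyrobp, Itgam and Adgre1 had means up to 6.01 ± 0.267. Against this, Cd68, a lysosomal protein of phagocytes, was at 369, 429 and 427 and Cd14, the lipopolysaccharide co-receptor, at 379, 341 and 361. Laptm5 (81.5 ± 11.2) was the other member above the sense-strand floor, and the summed signal was 1068 to 1148 per array. The second probe set of Cd68 was at 1.36 ± 0.633.

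Glial and neuronal markers each held a few clear signals. Among 13 glial genes 8 lay above the bacterial floor (61.5%) and 6 above the sense-strand floor (46.2%), against 71.6% and 48.4% of all genes. The highest were the myelin gene Pmp22 (476 ± 12.1, second probe set 1.84 ± 0.505) and Glul, glutamine synthetase (316 ± 23.3, second probe set 18 ± 11). With the lowest probe sets the 8 became 4. Aqp4 and Mog were at 3.82 ± 1.68 and 1.44 ± 0.121. Among 14 neuronal genes 4 lay above both floors (28.6%, below both shares of all genes). They were the tubulin gene Tubb3 (514 ± 53.6, second probe set 36.6 ± 8.34), Uchl1 (425 ± 20.1), Eno2 (74.2 ± 1.62) and Stmn2 (67 ± 2.27). Other probe sets of Stmn2 were at 12.1 ± 0.475 and 9.11 ± 3.83. The synaptic genes Syp, Snap25 and Syt1 had means up to 6.06 ± 2.88. With only the probe sets that carry no letter suffix, 2 neuronal genes lay above the bacterial floor.

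**Figure D2:**
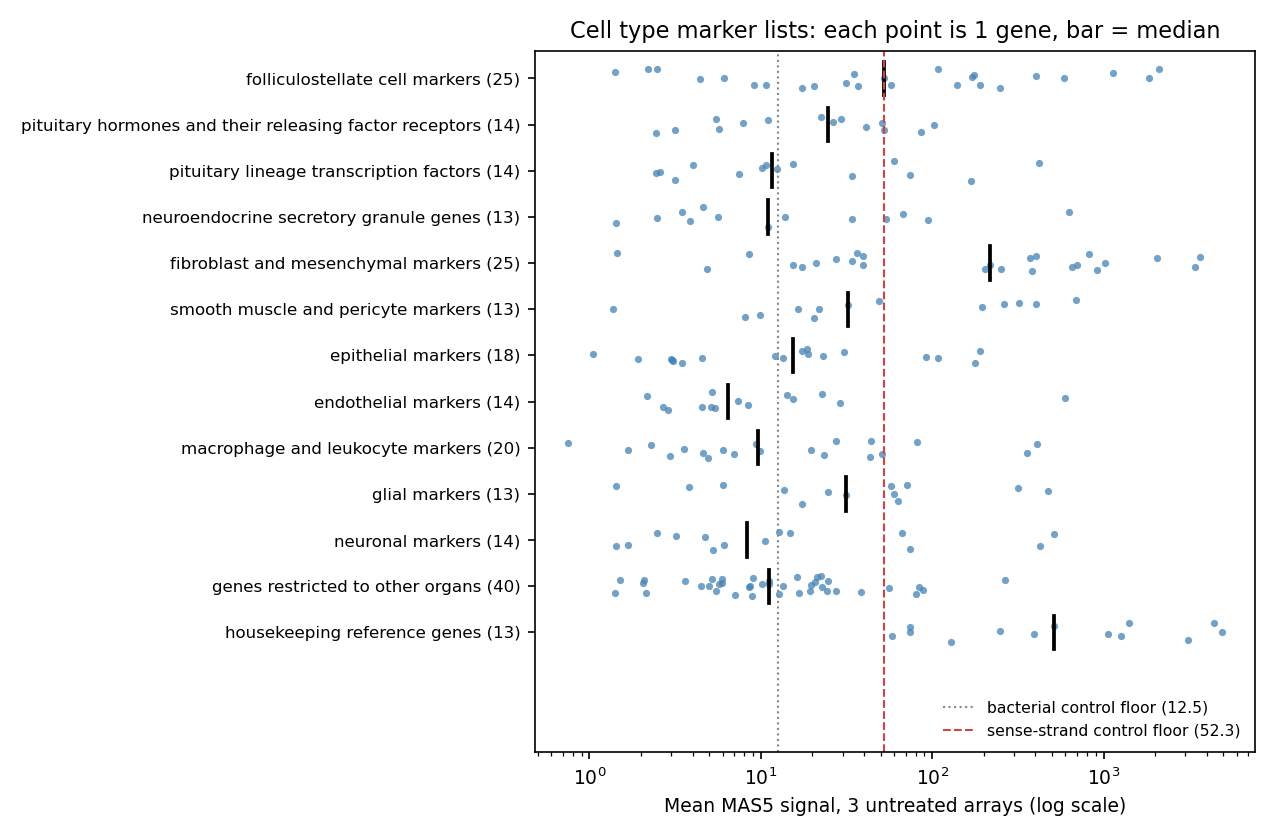
Mean MAS5 signal over the 3 untreated arrays (log scale) of each measured gene in 11 cell type lists, in genes restricted to other organs and in housekeeping genes, with the number measured in brackets, list medians as bars and the 2 background floors as vertical lines. The fibroblast and mesenchymal median of 217 is the highest of the cell type lists. Next is the folliculostellate median (52.4), level with the sense-strand floor (52.3), and the endothelial median (6.41) is lowest.

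Matrix genes formed a large part of the secreted profile. Of 71 measured collagens and other matrix proteins, 51 lay above the bacterial floor and 32 above the sense-strand floor. Their counts were near the background shares, with a median of 54.1. Bgn, the small proteoglycan biglycan, ranked 23 with signals of 2548, 3183 and 2751. Interstitial collagen chains had Col5a2 at 914 ± 8.3, Col6a1 at 825 ± 24.2, Col6a3 at 803 ± 66.9 and Col3a1 at 701 ± 49, and the basement membrane chain Col4a1 was at 836 ± 40.8. Dcn, decorin, stood at 656 ± 20.5 and fibronectin (Fn1) at 381 ± 52.5. Vtn, Matn1, Mgp, Acan and the collagen IV chains Col4a3 and Col4a4 were at or below the bacterial floor.

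Proteases and their inhibitors had the highest median of the secreted lists, 81, with 35 of 56 above the bacterial floor and 30 above the sense-strand floor. The lysosomal proteases cathepsin D and B gave 2166, 2494 and 2354 (Ctsd) and 1660.0, 1696 and 1667 (Ctsb), and Cst3, the cathepsin inhibitor cystatin C, 1994, 1949 and 2134. Serpinh1, the collagen chaperone, was at 1316 ± 22.9, Timp3 at 650.1 ± 123 and Timp1 at 588 ± 85.5. Among matrix metalloproteinases, Mmp14, the membrane-bound collagenase, was at 514 ± 101, Mmp3 at 289.8 ± 4.63, Mmp11 at 165 ± 18.2 and Mmp13 at 132 ± 28.6. Mmp2 and Mmp9, the gelatinases, were at 7.33 ± 6.15 and 6.49 ± 0.868.

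Cytokines and chemokines split into a few very high and many low signals. Over the list, 21 of 61 measured members lay above the bacterial floor on all 3 arrays, 10 also above the sense-strand floor, and 28 at or below the bacterial floor on all 3. The median was 10.01. Ccl2, which attracts monocytes, ranked 29 of all genes with signals of 2632, 2679.9 and 2626. Cxcl1, which attracts neutrophils, was at 1904, 1938 and 1939, with a second probe set at 1374 ± 131. Ccl7 and Cxcl5, further chemoattractants of monocytes and neutrophils, were at 1136, 1014 and 1191 and 1111, 1085 and 869. Csf1, the growth factor of macrophages, was at 541, 606 and 597. Each of these genes lay far above both floors on all 3 arrays, and replicate 3 was the lowest for Cxcl5.

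The other chemokines and cytokines with a signal above the sense-strand floor were lower. They were Cx3cl1 (142 ± 8.95), Lta (95.9 ± 11.1), Ctf1 (87.5 ± 7.95), Ccl22 (79.2 ± 11.4) and Csf3 (74.7 ± 4.7). The inflammatory genes Tnf (7.59 ± 2.38), Il1b (3.57 ± 0.363), Il1a (5.92 ± 3.83), Ifng (1.62 ± 1.12) and Csf2 (3.45 ± 2.78) lay at or below the bacterial floor. Cxcl2, which like Cxcl1 encodes a neutrophil attractant, was at 2.05, 5.17 and 2.19, and Cxcl10 at 11 ± 1.39.

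Acute phase and carrier genes included further high signals. Saa3, a serum amyloid A protein made outside the liver, ranked 34 with 2316, 2601 and 2670.5. Lcn2, the iron-scavenging lipocalin, was at 919.5, 1011 and 988, the sphingolipid activator precursor Psap at 1917 ± 125 and ceruloplasmin (Cp) at 374 ± 13.3. Ptgds, prostaglandin D synthase, was at 357 ± 14.6. Of 33 measured members 20 lay above the bacterial floor and 15 above the sense-strand floor, and the plasma protein genes Alb and Apoa1 stood at 16.3 ± 8.94 and 5.91 ± 0.516.

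Promoters are shown for those of Ccl2, Cxcl1, Ccl7, Cxcl5, Csf1 and Saa3, the immune products with the highest signals, that the RefSeq table (GRCm38.p6) holds, chosen after their values were seen. The 250 bases before the annotated start were searched on both strands for GGG followed by any 2 bases and TTTCC, a form of the NF-kB site, and for TTNNGCAA, a form of the C/EBP site, and from 45 to 15 bases before the start for TATAAA on the gene's strand. Matches to the first and second motif are in capitals.
Cxcl1: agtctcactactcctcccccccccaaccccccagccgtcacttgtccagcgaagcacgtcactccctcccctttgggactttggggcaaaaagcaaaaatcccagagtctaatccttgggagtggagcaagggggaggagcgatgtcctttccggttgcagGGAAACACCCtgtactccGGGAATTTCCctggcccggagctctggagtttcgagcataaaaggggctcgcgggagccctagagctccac
Saa3: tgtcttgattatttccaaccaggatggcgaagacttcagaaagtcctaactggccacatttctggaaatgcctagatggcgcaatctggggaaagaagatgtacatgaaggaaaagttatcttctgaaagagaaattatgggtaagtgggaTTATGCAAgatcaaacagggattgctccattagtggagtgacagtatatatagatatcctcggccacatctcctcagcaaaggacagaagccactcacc
Csf1: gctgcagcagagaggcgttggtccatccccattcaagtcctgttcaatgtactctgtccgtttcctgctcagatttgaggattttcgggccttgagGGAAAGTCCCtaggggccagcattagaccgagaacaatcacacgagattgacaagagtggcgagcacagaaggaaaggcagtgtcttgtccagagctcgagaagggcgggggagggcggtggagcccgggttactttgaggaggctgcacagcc
On the reverse strand the first motif reads GGAAA, any 2 bases and CCC. The windows lie at chr5:90890995-90891244, plus strand (Cxcl1), chr7:46715677-46715926, minus strand (Saa3) and chr3:107760470-107760719, minus strand (Csf1). The first motif was found before Cxcl1 and Csf1 and in 1.40% of all 27025 promoters of the table, and the second before Saa3 and in 9.55%. TATAAA was found before none of the 3, and in 2.36% of all. A match is a run of letters and was not tested as a binding site.

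Growth and angiogenic factors had 27 of 44 measured members above the bacterial floor and 19 above the sense-strand floor. Hdgf, a nuclear and secreted growth factor, was at 1596 ± 81.5 and Grn, progranulin, at 633 ± 34.7. Kitl, the ligand of the receptor Kit, had signals of 654, 588 and 368, with replicate 3 below the others. Neurotrophic ligands were among those with signal, with Gdnf at 326, 328 and 357 and Bdnf at 174, 139 and 138, although the second probe set of Gdnf was at 34.1 ± 19. Igf1 was at 286, 370.1 and 299 with a second probe set at 4.25 ± 1.27, Fgf7 at 253 ± 37.7 and Pdgfa at 191 ± 18.3. The matricellular genes Ccn1, Ccn2, Ccn3 and Ccn4 were at 369 ± 61.1, 344 ± 13.3, 284 ± 14.8 and 185 ± 14.9. Hgf, Vegfc and Fgf10 had means up to 2.42 ± 0.674.

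Ligands and antagonists of the TGF-beta, BMP and Wnt families were mostly low, with 22 of 52 above the bacterial floor and 9 above the sense-strand floor. Sfrp2, a secreted Wnt antagonist, was the exception at 2411, 2664 and 2136 (rank 39). Tgfb3 followed at 192 ± 7.78, Dhh at 149 ± 24, Fstl1 at 127 ± 12.5 and Bmp4, which acts on several pituitary cell types, at 122, 113 and 88.1. The highest of the Wnt ligands was Wnt1 at 56.6 ± 8.74, with 1 of its 3 arrays below the sense-strand floor.

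Hormones, neuropeptides and binding proteins had 26 of 50 above the bacterial floor and 13 above the sense-strand floor. The IGF-binding protein genes Igfbp4 and Igfbp6 were at 339 ± 41.3 and 167 ± 30.7, and Nucb1, a Golgi calcium-binding protein, at 373 ± 23.3. Igfbp3 and Igfbp1 were at 5.53 ± 0.973 and 6.54 ± 3.4. The peptide genes Lep and Oxt were at 116 ± 23.2 and 115 ± 2.42, below Cela1 but above the other 39 organ-restricted genes, and the lowest probe set of Lep had a mean of 13.3.

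**Figure D3:**
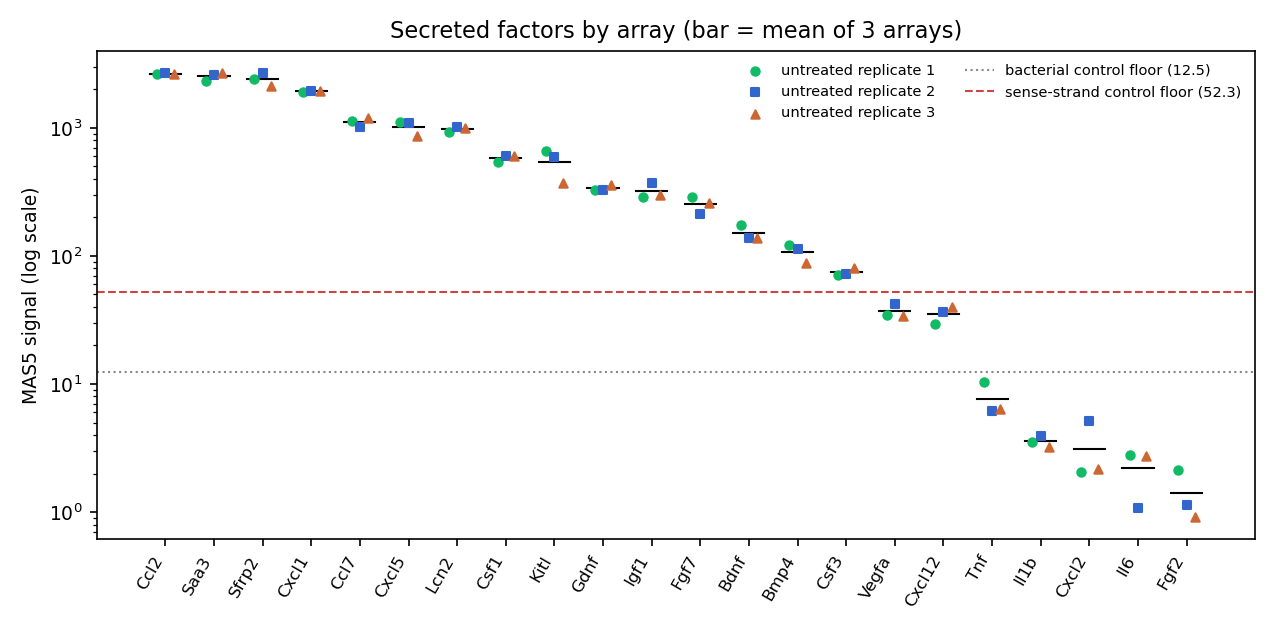
MAS5 signal (log scale) of 22 secreted factors on untreated replicates 1, 2 and 3, with the mean as a bar and the 2 background floors as lines. Ccl2, at 2646 ± 29.5, and Saa3, at 2529 ± 188, have the highest means, and Il6, at 2.21 ± 0.980, and Fgf2, at 1.41 ± 0.655, lie below both floors.

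Of 277 measured receptor genes, 140 lay above the bacterial floor and 71 above the sense-strand floor, beside 202 and 128 of 367 measured secreted factors. Both classes had smaller shares above each floor than the 71.6% and 48.4% of all genes. For the receptors of cytokines and chemokines, 27 of 54 measured members lay above the bacterial floor on all 3 arrays, 16 also above the sense-strand floor, and 17 at or below the bacterial floor on all 3. Osmr and Il6st, which together form the oncostatin M receptor, were at 488, 446 and 486 and 190.2, 193 and 198. Il6st encodes gp130, the signal chain shared by the IL-6 family, and among the chains that pair with it Il6ra was at 82.7, 73.8 and 91.6 and Lifr at 99.5, 77 and 79.7. Each array lay above both floors for these 4 genes. Cntfr, the ciliary neurotrophic factor chain of gp130 complexes, was at or below the bacterial floor at 6.34, 5.68 and 5.69. Other probe sets of Lifr ranged down to 7.64 ± 2.86.

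Further members of this list included the tumour necrosis factor receptor gene Tnfrsf1a at 159 ± 6.03, Ltbr at 167 ± 12.1, Il10rb at 141 ± 21.8 and the growth hormone receptor gene Ghr at 104 ± 13.2. Both chains of the interferon gamma receptor were above the sense-strand floor, Ifngr1 at 85.8 ± 10.5 and Ifngr2 at 97.4 ± 23.2. Csf3r was at 254 ± 17.5 by 1 probe set, with 2 more at 5.61 ± 0.416 and 4.08 ± 1.29. The chemokine receptors Ccr1, Ccr2, Ccr6, Ccr7, Cxcr3 and Cxcr4 were at or below the bacterial floor, and so were Csf2ra (2.68 ± 0.676) and Csf2rb (5.05 ± 1.31) of the GM-CSF receptor.

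Receptor tyrosine kinases had 17 of 41 above the bacterial floor and 9 above the sense-strand floor. The collagen receptors Ddr2 and Ddr1 gave 373, 433 and 441 and 224, 236 and 224. Pdgfra was at 222, 219 and 173, although its other probe sets read 40.4 ± 1.47 and 5.11 ± 2.81. Fgfr1 was at 183, 196 and 214 and Igf1r at 140.2, 132 and 133. Egfr, the receptor of EGF, lay above the bacterial floor on 1 array (7.99, 5.93 and 15.2). Kit and Met, the receptors of Kitl and Hgf, were at 7.16 ± 4.26 and 2.82 ± 0.679.

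Among the listed receptors for amines, peptides and lipid mediators, F2r gave the highest signal. It encodes the thrombin receptor PAR1 and was at 680.5, 645 and 627 (rank 346), with other probe sets at 90.6 ± 3.44 and 70.5 ± 5.05. The sphingosine 1-phosphate receptors S1pr2 and S1pr3 were at 121 ± 6.95 and 98.6 ± 3.23 and the lysophosphatidic acid receptor Lpar1 at 80.9 ± 12.2. In this list of 35, 17 lay above the bacterial floor and 7 above the sense-strand floor. The prostaglandin receptors Ptger1, Ptger2, Ptger3, Ptgdr and Ptgir were at or below the bacterial floor, and Ptger4 was at 31.5 ± 6.13.

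Peptide hormone and neuropeptide receptors were the lowest of the receptor lists, with 19 of 51 above the bacterial floor (37.3%, against 71.6% of all genes), 5 above the sense-strand floor and a median of 11. Their highest were Cckbr (162 ± 9.44), Sstr4 (153 ± 6.92) and Ramp2 (128 ± 14.7), the last an accessory chain of the adrenomedullin receptor, whose main chain, Calcrl, was at 0.861 ± 0.312. Adcyap1r1, the receptor for PACAP, a peptide known to act on folliculostellate cells, was at 18.8 ± 6.82, above the bacterial floor on 2 arrays, with its second probe set at 1.48 ± 0.562. With the floor at the highest bacterial control value the count of the list above it was 12.

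Of the nucleotide receptors, 5 were measured and the adenosine receptors were not analysed here. P2rx4 and P2rx7, ATP-gated channels, were at 219, 184 and 232 and 89.3, 91 and 86.9, and P2rx1 was at 79.9 ± 11.5. The G protein-coupled P2ry1 and P2ry2 were at 1.41 ± 0.792 and 4.61 ± 0.663.

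Among receptors of the TGF-beta superfamily Eng and Acvrl1, which work together in endothelial signalling, were at 592 ± 73.6 and 84.9 ± 3.57, the only 2 of 12 above the sense-strand floor. Tgfbr1 and Tgfbr2, the signalling chains for TGF-beta itself, were at 2.96, 1.64 and 1.22 and 1.54, 3.09 and 0.695 by their single probe sets. The activin receptors Acvr2a and Acvr2b were at 49.6 ± 18.4 and 40.8 ± 13 and the BMP receptor Bmpr1a at 42.1 ± 15.4. Wnt, Notch and Hedgehog receptors had 11 of 16 above the bacterial floor and 6 above the sense-strand floor, led by Fzd4 (265 ± 23.9), Fzd2 (177 ± 8.96), Lrp6 (127 ± 10.4) and Notch2 (77.7 ± 13.4). The other probe sets of Fzd4 were at 5.46 ± 1.29 and 0.984 ± 0.128.

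Nuclear receptors had 22 of 37 above the bacterial floor and 11 above the sense-strand floor. After Nr5a1, whose probe sets disagree, the highest were the retinoid X receptors Rxrb (358, 285 and 236) and Rxra (169, 169.8 and 166) and the thyroid hormone receptor Thra (272, 312 and 285, second probe set 10.6 ± 4.78). Nr3c1, the glucocorticoid receptor, through which steroids act on folliculostellate cells, was at 22.1, 19.2 and 17.2, between the floors. The vitamin D receptor Vdr was at 35.7 ± 1.54, and the oestrogen receptors Esr1 and Esr2 at 8.83 ± 0.723 and 1.88 ± 0.469.

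Integrins and other matrix receptors were the strongest receptor list by highest signal. Itgb1, the beta chain shared by most matrix-binding integrins, was at 1925, 1459.7 and 1877, lowest in replicate 2. Itgav and Itgb5, which pair to bind vitronectin, were at 577 ± 103 and 609 ± 48, and Bsg, basigin, at 1384 ± 61.1. Other probe sets read 48.5 ± 9.67 and 24.1 ± 6.83 for Itgav and 140 ± 42 for Itgb5. Itgb7, known from lymphocytes, was at 819.6 ± 60.4 by 1 probe set and 28 ± 8.93 by another. Of 26 members 17 lay above the bacterial floor and 12 above the sense-strand floor.

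**Figure D4:**
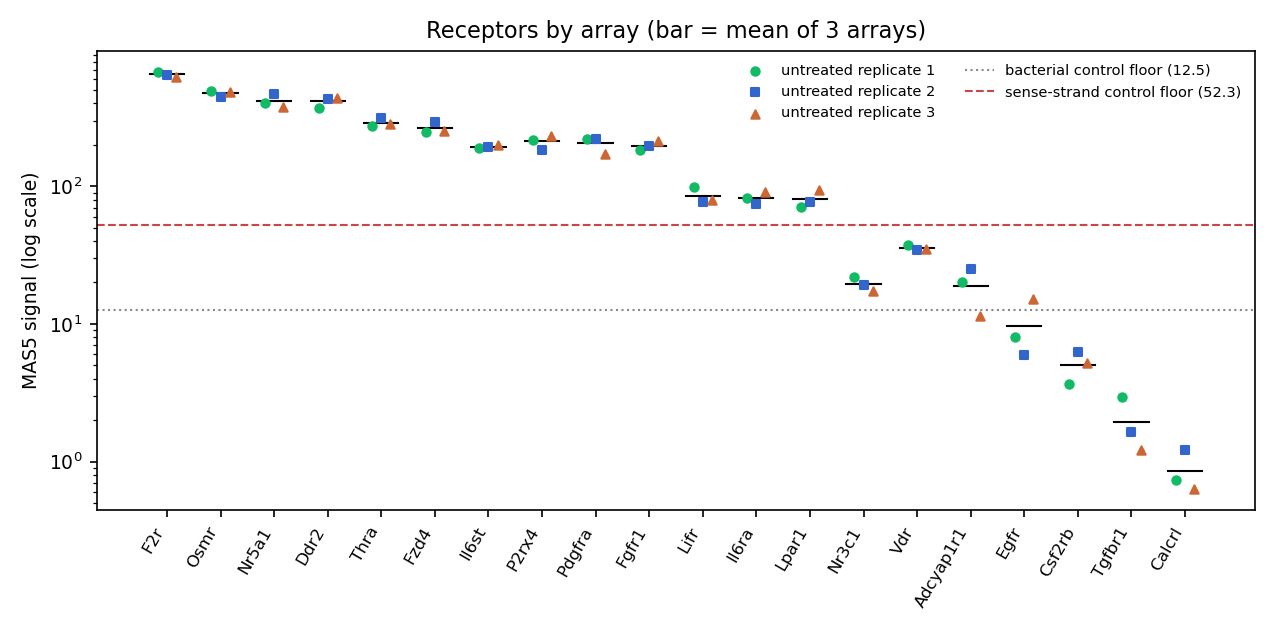
MAS5 signal (log scale) of 20 receptor genes on untreated replicates 1, 2 and 3, with the mean as a bar and the 2 background floors as lines. F2r (651 ± 27.1) and Osmr (473 ± 23.5) lie at the top, Nr3c1 (19.5 ± 2.43) and Vdr (35.7 ± 1.54) lie between the floors, and Tgfbr1 (1.94 ± 0.909) and Calcrl (0.861 ± 0.312) lie below both.

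The untreated cultures had strong signals for cell division genes. For cyclins, Cdk inhibitors and tumour suppressors, 39 of 47 measured members lay above the bacterial floor on all 3 arrays, 27 also above the sense-strand floor, and 7 at or below the bacterial floor on all 3 (83.0% and 57.4% for the first and second count, against 71.6% and 48.4% of all genes). Cdk4, the kinase of the D cyclins, was at 1558, 1726 and 1719.8, and Ccnd1 at 510.0, 518 and 532. The mitotic genes Ccnb2 and Cdk1 were at 618 ± 33.7 and 576 ± 75.8, and Pcna and Mcm4, of DNA replication, at 559 ± 50.7 and 418 ± 18.1. Mki67, which marks cycling cells, was at 214 ± 21.2 and Pttg1, securin, at 355 ± 28.1. Ccnd2 was at 4.45 ± 0.434 and the inhibitor gene Cdkn1b at 7.48 ± 2.06, while Cdkn1a and Cdkn2c were at 219 ± 14.8 and 237 ± 22.9.

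Antigen presentation genes were mixed in both classes. In class I, B2m, the shared light chain, was at 1072, 1075 and 1031, H2-K1 at 349, 418 and 433 and H2-D1 at 400.4, 371 and 409, while H2-T24 and H2-Q1 were at or below the bacterial floor at 2.7 ± 0.478 and 11.6 ± 0.327. In class II, H2-Aa and H2-Ab1 were at 4.95 ± 0.430 and 7.0 ± 2.34, H2-DMa at 83.9 ± 16.7 and H2-DMb1 at 48.5 ± 4.98, and H2-Eb1 ranged over 16.6, 20.5 and 59. Of 24 members measured 18 lay above the bacterial floor and 10 above the sense-strand floor. Class I genes are a family of close copies, so their probe sets may read each other's transcripts.

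Hox genes, which pattern the trunk and are not part of the anterior pituitary programme, had 17 of 31 above the bacterial floor and 6 above the sense-strand floor. Their shares, 54.8% and 19.4%, were below the 71.6% and 48.4% of all genes, and their median was 18.6. Hoxb7, Hoxb8, Hoxd8 and Hoxb6 were at 99.7 ± 18.2, 99 ± 23.1, 93.4 ± 8.28 and 76.5 ± 9.05. Hoxb8 rests on 1 probe set with a letter suffix, and its other probe set was at 6.99 ± 3.95. Hoxa4 was at 274 ± 17 by 1 probe set with a letter suffix and between 0.469 ± 0.168 and 12.7 ± 4.66 by another 3. Of 23 imprinted genes 11 lay above the bacterial floor and 8 above the sense-strand floor, among them Sgce (395 ± 46.9), Igf2r (154 ± 10.5), Igf2 (92.1 ± 3.58) and Dlk1 (75.4 ± 9.78), with Meg3 at 8.33 ± 0.521 and Cdkn1c at 4.74 ± 1.29. The imprinted shares, 47.8% and 34.8%, were also below those of all genes.

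Sex chromosome genes gave no clear signal. Xist, the RNA that silences an X chromosome in female cells, had signals of 1.38, 8.09 and 6.33. The Y-linked genes Kdm5d, Uty, Eif2s3y and Uba1y had means between 2.12 ± 0.562 and 7.39 ± 2.36, and Sry was at 9.02, 16.6 and 7.79. All 6 measured genes lay outside the class above the bacterial floor on all 3 arrays.

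Genes at different signal levels also differed in their promoters. The table held an entry for 79.7% of the 8251 genes. The observed over expected ratio of CpG pairs, a measure of CpG islands, had a median of 0.79 for the 77 genes with an entry among the first 100 by signal, the same, 0.79, for the other 3179 above the sense-strand floor, and 0.72 for the 1506 above the bacterial floor only. It was 0.54 for the 630 genes above that floor on some arrays and 0.42 for the 1180 at or below it on all 3. The share of promoters with a ratio over 0.6 was 71.4% in the first 100, 77.5%, 63.4% and 45.6% in the groups that follow and 37.7% in the last. TATAAA was found in 2.60% of the 77 promoters of the first 100, a share that rests on few promoters. In the promoters of the other groups it was found in 1.54%, 3.39%, 4.44% and 6.44%, in the same order. The first 100 thus did not lie at the end of either series. Genes of the first 100 spanned a median of 7.98 kb of the genome, against 19.2 kb over all genes with a known span. These are descriptions over genes, which are not replicates, and no test was made.

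The arrays agreed best for strong signals. The median coefficient of variation (CV) was 35% for genes with a mean up to the bacterial floor, 18.9% between the floors, 10.4% from the sense-strand floor to 200, 8.59% from 200 to 1000 and 7.25% above 1000. Any pair of arrays differed by a median of 1.10-fold to 1.11-fold over the genes above the sense-strand floor, and at most 26 of those genes (0.651%) differed by over 2-fold. Over the genes above the bacterial floor up to 111 (1.88%) did.

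Some genes were almost identical on all 3 arrays. Mob1a, a Hippo pathway regulator, read 263, 261 and 262, and Snrpe, of the spliceosome, 799.8, 798 and 804. The other 8 of the 10 smallest CVs, all 0.581% or lower, belonged to Mnat1, Cux1, Gm34703, Ggh, Banp, Rbbp6, Polr1d and Chchd7.

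The 10 largest CVs among genes above the bacterial floor, from 65.3% to 106%, each came from 1 array that stood apart or from 3 scattered values. Pklr, a pyruvate kinase of liver and red cells, read 13.7, 85.3 and 16.2, with replicate 2 high. Tradd, an adaptor of tumour necrosis factor receptors, read 303, 83.9 and 102, with replicate 1 high, and it had the highest mean of the 10. Comtd1, Slc25a3 and H2-Eb1 were high in replicate 3, Cd4, Kcnn1 and Prp2 in replicate 2 and Smim10l1 in replicate 1, while St8sia5 was scattered. The 10 means lay between 24.2 ± 18.9 and 163 ± 122, so most were near the floors.

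**Figure D5:**
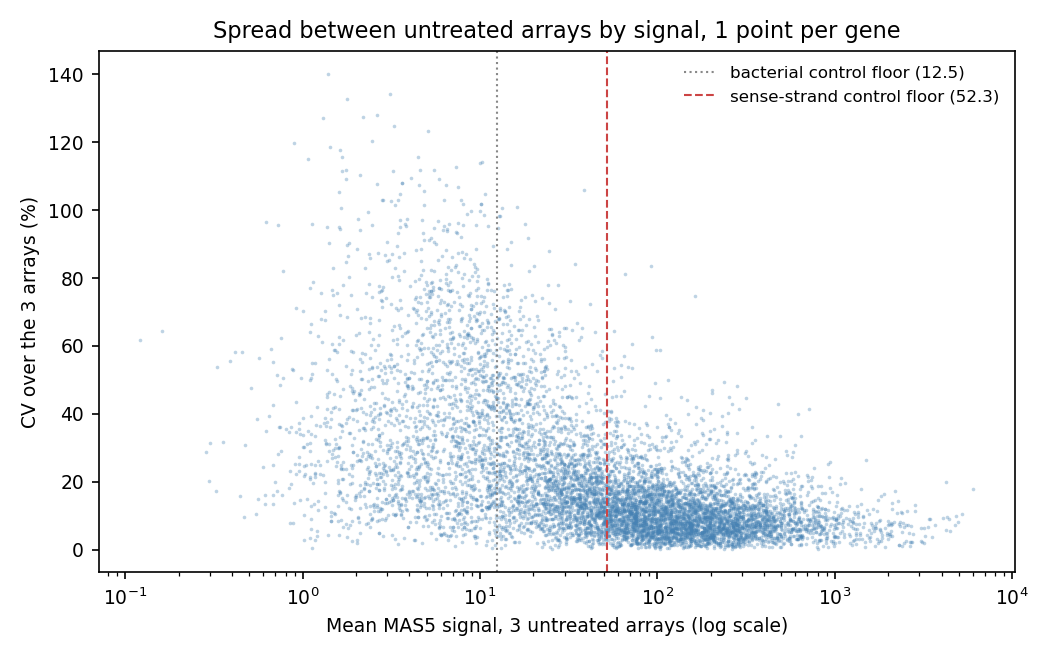
Coefficient of variation over the 3 untreated arrays (percent) against mean MAS5 signal (log scale), 1 point per gene, with the 2 background floors as vertical lines. The median falls from 35% below the bacterial floor to 7.25% above a signal of 1000, and 18.1% of the genes above the bacterial floor exceed 20%.

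Probe sets for the same gene agreed far less than arrays did. Of 1269 genes with several probe sets and at least 1 above the sense-strand floor, 396 (31.2%) had another at or below the bacterial floor on all 3 arrays. The highest mean was a median of 7.62 times the lowest, and for 227 genes (17.9%) it was under 2 times. Genes named above that lay over the sense-strand floor on all 3 arrays but whose lowest probe set had a mean at or below the bacterial floor were Gnas, S100a13, Timp1, Pmp22, Nr5a1, Cd68, Nes, Ptgds, Pttg1, Igfbp4, Igf1, Thra, Hoxa4, Fzd4, Tpm2, Csf3r, Apoe, Pdgfra, Tgfb3, Krt18, Tjp1, Dhh, Cryab, Lrp6, Polr1d, Hoxb8, Lta, Igf2, Lifr, Tnp1, Gata2, Stmn2, S100a3 and Sox3. The difference between probe sets of a gene was thus larger than the spread between arrays, and a gene with a single low probe set, such as Vim, Tgfbr1 or Il6, can be read only as having no signal on that probe set.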

How the data were processed

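The deposited table gives 1 intensity per probe set and array, a MAS5 signal per the submitters' processing notes, and the MAS5 version is not given in the sources used here. Per the labels' protocols, 10 µg of RNA was reverse transcribed from an oligo(dT) primer, so signals lean on 3' ends. The 2% trimmed mean was 99.98 on each of the 3 arrays, so no further scaling was applied. Detection calls were not used here. The control ratio of 3' to 5' signal was 0.995 ± 0.028 for Gapdh and 1.23 ± 0.076 for Actb (SD, n = 3).

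Symbols came from GEO's platform annotation, which can be old. Of 12422 probe sets 396 have several symbols and 1193 none, and these are not named. The RefSeq gene table held the gene IDs of 10817 and changed 0 symbols. With Python 3.11.15, pandas 2.3.3 and numpy 2.4.6, means, SDs, ranks and the 2 floors were computed, and 37 lists with 1162 genes, 972 of them measured, were counted. The ranking and the calls against the bacterial floor were also run on simulated data, with chosen genes set well above or below that floor. Such data do not test calls near the floors. No test between groups was made.

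Members and lists were chosen with earlier results of these data known. Named were the 30 highest means, the 10 largest and 10 smallest CVs above the bacterial floor, up to 8 members per list with the highest signals above that floor, every member of lists of at most 15 measured genes, and fixed genes such as Gja1, S100b and Il6. Other genes, mostly with low signals, and the sense-strand floor were chosen after the values were seen.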

Additional observations from a re-analysis of the deposited data

How the results depend on the processing

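The counts of genes above the bacterial floor on all 3 arrays stayed within 1.5 times of 5911 under every alternative run, from 3995 with the sense-strand floor to 6306 when 2 of 3 arrays sufficed. Genes at or below the floor numbered 1525, but 2297 with the lowest probe set of each gene and 3712 with the sense-strand floor, an alternative added after seeing the data. That floor also reduced the list members above it from 528 to 305 and the genes with a CV over 20% from 1070 to 354, since fewer genes pass it. With the lowest probe set 21 of the first 30 genes kept their place among them, with only probe sets without a letter suffix 24, with quantile normalization 30 and with the median over arrays 29. Leaving out 1 array gave 5992 to 6082 genes above the floor, 1620 to 1718 at or below it, 543 to 556 list members, 941 to 1129 genes with a CV over 20%, 3500 to 3545 genes above the floor with a CpG ratio over 0.6, and 28 to 29 of the first 30. Among 37 lists, 22 changed their count by over 1.5 times with the sense-strand floor, 6 with the lowest probe set, 4 with the floor at the 40th percentile of all values (21.8), 4 with it at the highest bacterial value (19.98), 1 when 2 of 3 arrays sufficed, 1 without letter-suffixed probe sets and 0 with quantile normalization. The signals of named genes moved by over 1 SD for 132 of 367 with the lowest probe set, for 31 of 333 with only probe sets without a letter suffix and for 1 with quantile normalization. No paired analysis was possible because 1 group was used and no test was made. Signals near the floors limit what can be said of scarce transcripts.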

Other observations

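Genes were also grouped by the letters at the start of their symbols, a grouping made after the data were seen and not tested. Among 66 such stems with at least 12 measured genes, those with the largest share above the sense-strand floor were Psmd of the proteasome (13 of 14), Gtf of general transcription (13 of 15), Mrpl of the mitochondrial ribosome (33 of 40), Cdk (13 of 16), Mrps (17 of 21) and Vps of vesicle sorting (16 of 20), against 48.4% of all genes. Those with the smallest were Vmn, the vomeronasal receptors (0 of 12), Klk, the kallikreins (0 of 12), Wnt (0 of 14), Igkv of the antibody light chain (1 of 16), Syt (1 of 12), Fgf (2 of 17) and Sema (2 of 16). Interleukin and interleukin receptor genes under Il had 6 of 45.

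Some single genes had high signals for the group they belong to. Sprr genes, known from the cornified envelope of skin, had 6 of 13 above the sense-strand floor, near the share of all genes, with Sprr1b at 772 ± 64.5. The olfactory receptor gene Olfr71 was at 322 ± 14.9 while 3 of 21 genes under Olfr lay above that floor, and the sperm-surface gene Adam5 was at 339 ± 42.1. Slpi, a secreted leukocyte protease inhibitor of epithelia, ranked 48 at 1903, 2529 and 2365, and the metallothionein gene Mt2 ranked 33 at 2227, 2680.3 and 2776. Slpi has 4 probe sets, Sprr1b and Adam5 have 2 each, and Mt2 and Olfr71 have 1, and the values are those of the highest.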
